A study of Homo sapiens with 9 samples.

Results

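The cytosolic ribosomal protein genes were chosen by symbol: protein-coding genes named RPL or RPS followed by a number, together with RPSA, RPLP0, RPLP1 and RPLP2, leaving out the RPS6K kinases and all pseudogenes. The rule found 84 genes among the 78894 gene identifiers of each file, 52 of the large ribosomal subunit and 32 of the small one. The rule itself uses no measured value. Of the 84, 82 reached 1 TPM (transcripts per 1e+06 transcripts, a share of the library corrected for transcript length) in at least 2 libraries and were tested, among 17100 tested genes. The remaining pair, RPL3L and RPL10L, stayed at or below 0.305 TPM in every library.

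RNA was sequenced from CAL27, an established cell line derived from squamous carcinoma of the human tongue, in a study of an enhancer in head and neck carcinoma. The 4 groups were Control (3 samples) and the CRISPR knockouts A2ko, A8ko and C9ko (2 samples each), all grown in the same medium with no treatment named. The sequence removed in each knockout is not given in the sources used here, nor is the nature of the Control cells or whether a group is a clone or a pool, so no targeted gene could be checked. Both A2ko files held the same values, as did both A8ko files, and each pair was counted as 1 library, which leaves 3 Control, 1 A2ko, 1 A8ko and 2 C9ko libraries. Nothing says that replicates came from separate cultures, so p-values measure only the spread between these libraries, which may be technical.

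A ribosome consists of a small subunit, which reads the messenger RNA, and a large subunit, which joins the amino acids. Each subunit holds ribosomal RNA and a set of proteins, most of which are needed in equal numbers. They are encoded by genes scattered over nearly all chromosomes. In growing cells these genes are among the most strongly expressed, and proliferating carcinoma cells depend on a steady supply of ribosomes. Their messenger RNAs typically begin with a C followed by an unbroken run of pyrimidines, the terminal oligopyrimidine (TOP) motif, through which the mTOR kinase and the RNA-binding protein LARP1 control translation of the whole family.

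The RefSeq table of transcription starts (GRCh38.p14) held 67 of the 84 genes, with 83 listed starts, among 35116 starts of 27305 genes. A gene can have several starts that overlap. Of the members' starts, 52 (62.7%) began with a C, against 14.7% of all listed starts. The first 10 transcribed bases held a median of 8 pyrimidines in the members and 5 over all starts. Within 20 bases on either side of the start, the longest pyrimidine run had a median of 11 bases in the members and 5 over all starts. In that window of 40 bases, the letters CTTTC were found on the gene's strand at 42.2% of the members' starts and 5.64% of all starts, and on the other strand at 2.41% and 4.30%. CTTCC was found on the gene's strand at 37.3% of the members' starts and 9.64% of all, and TCTTTCC, which contains CTTTC, at 13.3% and 0.635%. On the other strand CTTCC stood at 9.64% of the members' starts and 9.29% of all, and TCTTTCC at 1.20% and 0.464%. A match describes the letters only.

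The start regions printed next belong to 8 of the 13 genes called in C9ko, each with a single listed start, and are shown so that the starts of genes called higher and lower can be set side by side. Each stretch runs 5′ to 3′ on the gene's strand over 30 bases, 15 before the listed start and 15 from it on, with the longest pyrimidine run in capitals.
RPSA: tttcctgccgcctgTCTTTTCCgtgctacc
RPL29: caccgcagCCCCTTTCTCTTCCggttctag
RPL14: gggcgggTCTTCTTCCTTCTCgcctaacgc
RPS6: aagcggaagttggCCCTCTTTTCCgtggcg
RPL21: cggccccgCCTCTTTCCTTTCggccggaac
RPL37A: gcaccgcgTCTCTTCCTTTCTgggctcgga
RPS26: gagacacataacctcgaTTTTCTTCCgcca
RPL12: ccgcgcgatttccggCCTCTCggctttcgg
The RPSA stretch lies at chr3:39406705-39406734 on the plus strand. The RPL29 stretch lies at chr3:51995881-51995910 on the minus strand. The RPL14 stretch lies at chr3:40457324-40457353 on the plus strand. The RPS6 stretch lies at chr9:19380222-19380251 on the minus strand. The RPL21 stretch lies at chr13:27251543-27251572 on the plus strand. The RPL37A stretch lies at chr2:216498829-216498858 on the plus strand. The RPS26 stretch lies at chr12:56041903-56041932 on the plus strand. The RPL12 stretch lies at chr9:127451392-127451421 on the minus strand. The longest run was 8 bases in RPSA, 14 in RPL29, 14 in RPL14 and 11 in RPS6, all higher in C9ko. It was 13 bases in RPL21, 13 in RPL37A, 9 in RPS26 and 6 in RPL12, all lower in C9ko. RPL15 and RPL32, called higher and with 3 listed starts each, had none that began with a C. Among the genes called lower, the listed start of RPS26 did not begin with a C either. RPS19, also called lower, had a listed start with a C and another without.

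The number of genes at 1 TPM or more per library was 15556 to 16716, and the depth is unknown. Mitochondrially encoded genes took 23.1% to 26.9% of the TPM in Control, 25.2% in A2ko, 20.6% in A8ko and 17.9% to 20.2% in C9ko. All 9 markers of squamous epithelium were at 1 TPM or more in every library. Their summed level was 16510 to 17622 TPM in Control, 6652 in A2ko, 7820 in A8ko and 10223 to 10383 in C9ko. In C9ko 4 of the 9 were called lower by limma (KRT5, KRT6A, KRT14 and DSG3) and 1 higher (CDH1), and their median log2 difference was -0.03, so the markers did not all go with the sum. Of the 6 fibroblast markers 2 reached 1 TPM in every library and COL3A1 was at 0 in all, with sums of 7.36 to 17.7 TPM over the 7 libraries. Of the 5 leukocyte markers 2 did so, with sums of 42.3 to 82.8 TPM, and the leukocyte-defining PTPRC was at or below 0.0232 TPM. Of the 3 endothelial markers 1 did so, with sums of 3.51 to 30.1 TPM, and PECAM1 was at or below 0.295 TPM. The one that did was CDH5, at 3.21 to 4.27 TPM in Control and 8.15 to 29.9 TPM in the knockout libraries. The part of these marker and mitochondrial differences in the results that follow was not tested.

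In Control cells the 82 tested genes had a median level of 1070 TPM, against 9.80 TPM over all tested genes. At or above 100 TPM stood 77 of them, and these made up 5.64% of the 1366 genes at that level. Within the 77, mean levels ranged over 28.2-fold, from RPL37 at 207 TPM to RPS2 at 5819 TPM. The large-subunit genes at that level had a median of 1072 TPM (46 genes) and the small-subunit genes 1089 TPM (31 genes). TPM is corrected for length, so levels of different genes are set side by side here. How reads were divided among genes and their pseudogene copies is not given, and its part in these levels was not tested.

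The highest levels in Control belonged to RPS2, a protein near the entry of the messenger RNA channel, at 5819 ± 487 TPM (SD, n = 3), to RPLP0, the base of the P stalk, at 3432 ± 171 TPM (SD, n = 3), to RPL12, which sits beside it, at 3428 ± 67.2 TPM (SD, n = 3), to RPS18 at 3076 ± 179 TPM (SD, n = 3) and to RPS3, another protein of the channel entry, at 2991 ± 124 TPM (SD, n = 3). Of these 5, RPS2 was at 6380.2, 5509.9 and 5567 TPM in the 3 Control libraries, above every library of the other 4. RPLP0 (3550.4, 3236 and 3510.1 TPM) and RPL12 (3353, 3450.4 and 3482 TPM) overlapped, as did RPS18 (2890.0, 3248 and 3088 TPM) and RPS3 (3099, 2855 and 3019 TPM), so their order within each pair is not beyond the spread. The lowest tested levels belonged to the paralogs RPS27L, RPL39L, RPL22L1, RPL26L1 and RPL7L1, all under 100 TPM, which are described with their parent genes below.

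**Figure D1:**
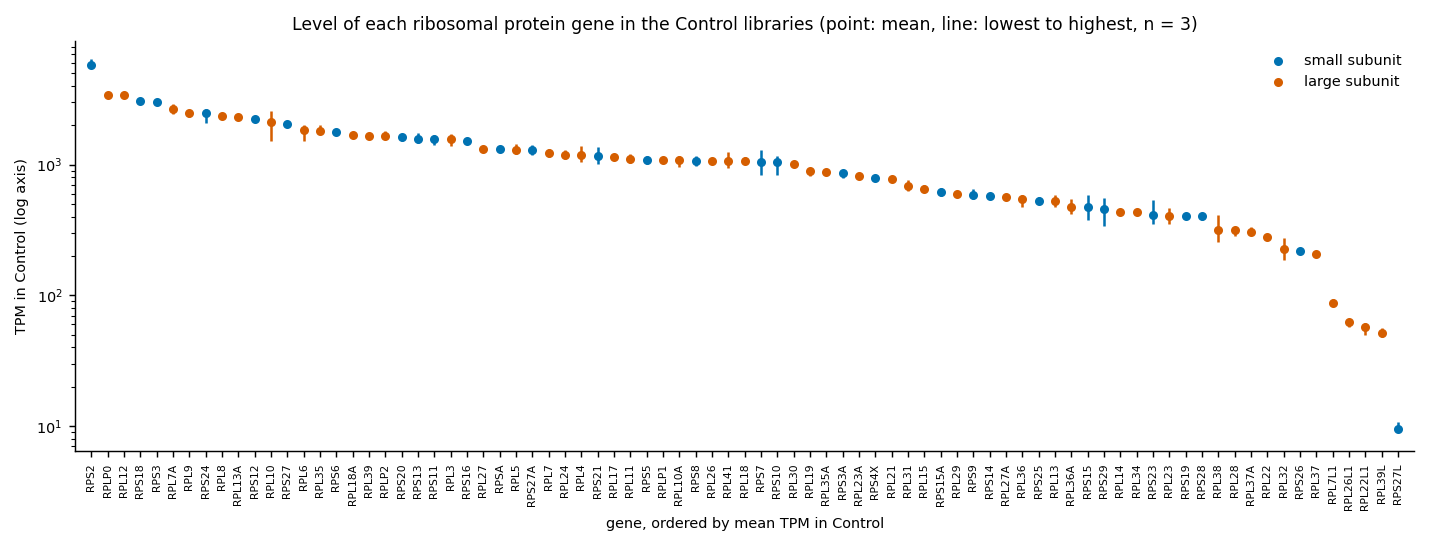
Mean TPM of 81 of the 82 tested ribosomal protein genes in Control on a log axis, ordered from RPS2 at 5819 TPM downward, with a line from the lowest to the highest of the 3 libraries, blue for the small and orange for the large subunit. The curve falls gently through the genes above 100 TPM and drops sharply to the 5 paralogs under 100 TPM.

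Spread between Control libraries was small for most of these genes. The coefficient of variation (SD as a percent of the mean) had a median of 7.0% and ran from 0.347% (RPL13A) to 25.9% (RPL38). The widest spreads, named after their values were seen, were those of RPL38 (255, 409 and 283 TPM), RPL10 (1524, 2214 and 2578 TPM), RPS23 (351, 534 and 358 TPM), RPS29 (340.3, 553 and 485 TPM) and RPS15 (454, 379.6 and 585 TPM). In RPL38 and RPS23 Control 2 stands above the other Control libraries, in RPL10 and RPS29 Control 1 is the lowest, and in RPS15 Control 3 is the highest.

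Together the 84 genes took 9.82%, 9.48% and 10.05% of all TPM in the Control libraries, a mean of 9.78% ± 0.287 (SD, n = 3). In the knockouts the share was 9.50% (A2ko), 9.04% (A8ko), and 9.14% and 8.90% (C9ko). The A2ko value lay within the Control range, and the A8ko value and both C9ko values lay below it. Without mitochondrially encoded genes the share was 12.8%, 13.0% and 13.1% in Control, 12.7% in A2ko and 11.4% in A8ko, and 11.5% and 10.8% in C9ko, with every knockout library below Control. The small-to-large ratio of the sums stayed between 0.785 and 0.813 in all 7 libraries, with the lowest and the highest Control at 0.785 and 0.807. Since TPM gives shares, less ribosomal protein messenger RNA and more of other transcripts cannot be told apart, and nor can fewer transcripts in every cell and fewer cells with a high level.

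**Figure D2:**
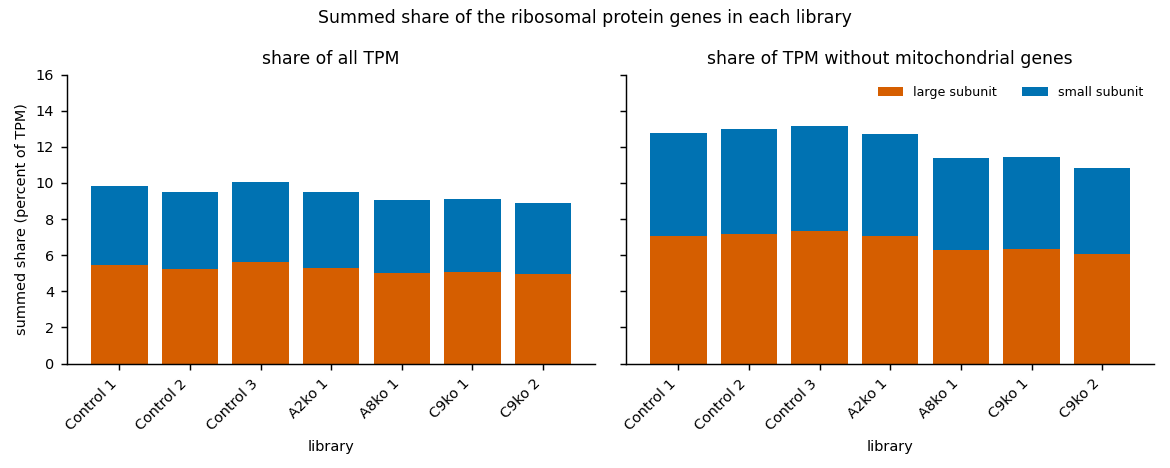
Summed share of TPM in each of the 7 libraries, in percent, for all genes (left) and without mitochondrially encoded genes (right), stacked from the large (orange) and small (blue) subunit. Bars of A8ko and C9ko end lower than those of Control in both panels, and the split between subunits hardly differs.

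The lower sum in C9ko hides a small set of genes with the opposite direction. The 6 genes called higher in C9ko (below) took 0.510%, 0.483% and 0.514% of TPM in Control, 0.516% in A2ko and 0.523% in A8ko, and 0.762% and 0.812% in C9ko. All other members took 9.308%, 8.996% and 9.53% in Control, 8.98% in A2ko and 8.52% in A8ko, and 8.37% and 8.08% in C9ko. These sums follow from the calls and are given as a description.

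Gene by gene, the members sat slightly below Control while the median tested gene sat slightly above. The median log2 difference of the 82 members was -0.05 for A2ko, -0.12 for A8ko and -0.16 for C9ko, against 0.12, 0.09 and 0.11 over all tested genes. Each Control library held against the other Control libraries gave member medians of -0.01, -0.09 and 0.06. The A2ko median was within that range, and the A8ko and C9ko medians were below it. Below the Control mean were 53 of 82 members in A2ko, 61 in A8ko and 67 in C9ko, against 6349, 6504 and 5988 of the 17100 tested genes. Scaling the libraries by the median of ratios shifted the median of all tested genes by -0.11 in A2ko, -0.09 in A8ko and -0.11 in C9ko. On that scale the member medians were -0.18, -0.22 and -0.29, more negative than as deposited. With mitochondrially encoded genes left out and TPM rescaled, they were -0.03 in A2ko, nearer to 0 than as deposited, and -0.19 and -0.26 in A8ko and C9ko. The 3 knockouts were set against the same Control libraries, and their values are therefore not independent.

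**Figure D3:**
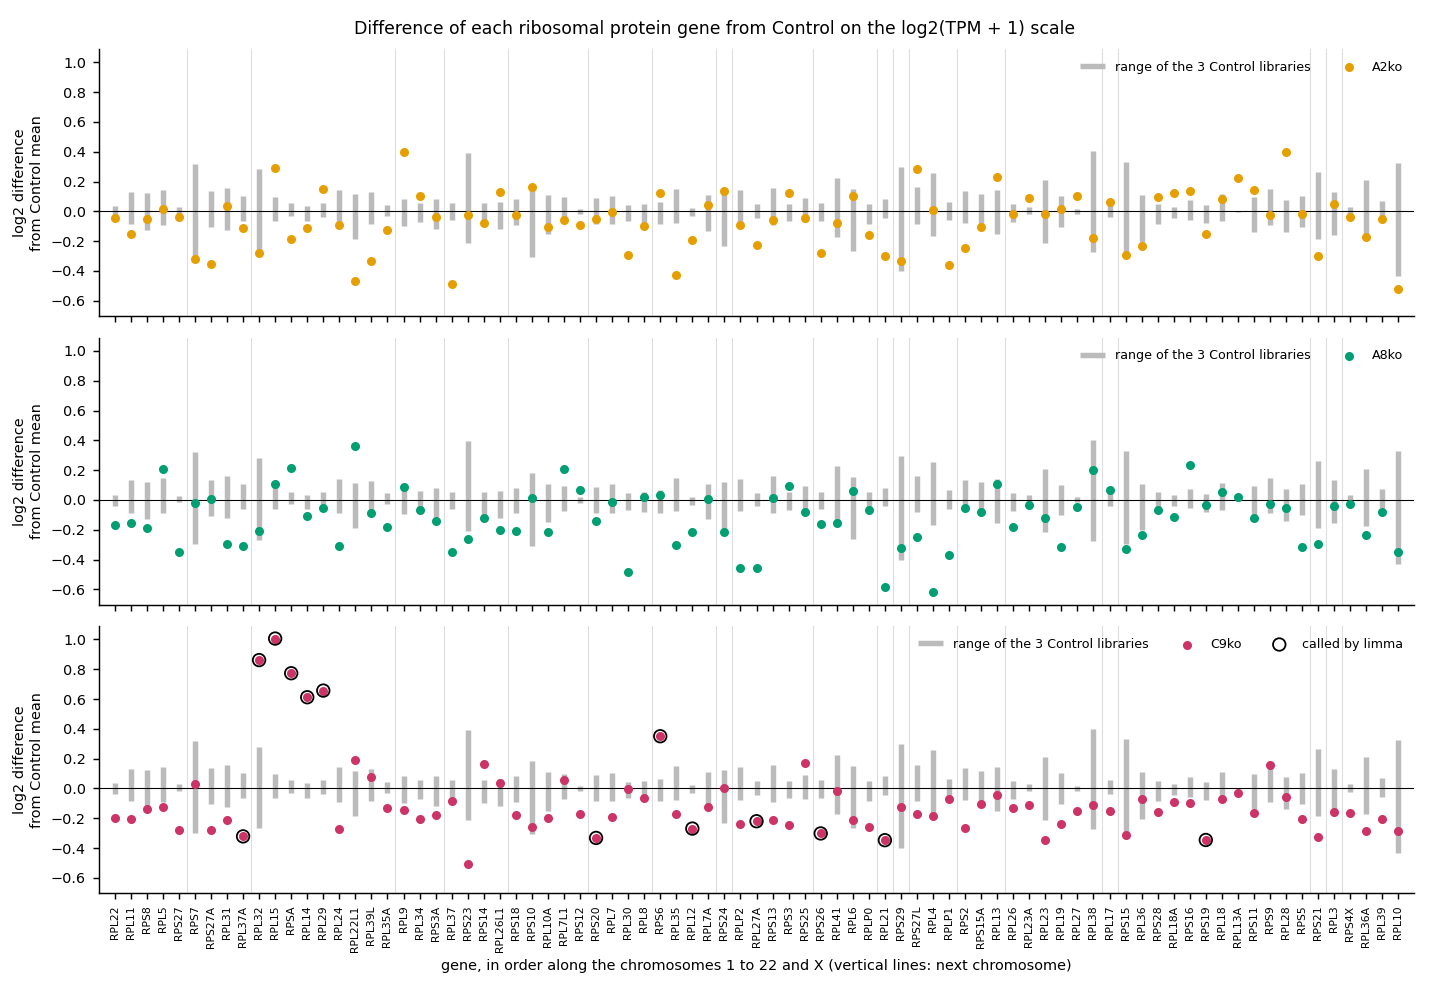
Difference of 81 of the 82 tested genes from the Control mean on the log2(TPM + 1) scale, in order along the chromosomes, for A2ko, A8ko and C9ko. Grey bars span the 3 Control libraries, and circles in the C9ko panel mark the 13 genes called by limma. A run of neighbouring genes on chromosome 3 stands far above the rest in C9ko, up to 1.01 for RPL15.

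C9ko, the only knockout with more than 1 distinct library, was tested against Control with limma on log2(TPM + 1). At an adjusted p under 0.05, 6 members were called higher, where 22% of all tested genes were, and 7 members were called lower, where 7.42% of all tested genes were. In this fit the members' share of higher calls is thus under the background and their share of lower calls is near it. The split depends on the scale. With median-of-ratios scaling 5 of the 82 members were called higher and 36 lower. Over all 17100 genes the split moved from 3770 higher and 1268 lower to 2626 and 2187. On that scale the members' share of lower calls is above the background. Of the 69 members without a call, 60 had a negative difference, from -0.51 upward, and the highest was 0.19. The matching share among all tested genes without a call is not given.

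Of the 6 higher genes, 5 lie on the short arm of chromosome 3, between 12834485 and 51995942. RPL15 (ENSG00000174748, chromosome 3, 23916545 to 23924374, build GRCh38, GENCODE 29), a large-subunit protein mutated in some families with Diamond-Blackfan anaemia, was at 633, 622 and 695 TPM in the Control libraries, 796 in A2ko and 699 in A8ko, and 1175 and 1449 in C9ko. Both C9ko libraries lie above all others, and A2ko lies above A8ko and Control. RPL15 rose in C9ko 2.01-fold (log2 difference 1.01, SE 0.11, limma adjusted p 0.000724). The gene overlaps NKIRAS1, which is read from the opposite strand. The dUTP libraries mark strand, but use of it by the counting step is not given in the sources used here.

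RPL32 (ENSG00000144713, chromosome 3, 12834485 to 12841588), a large-subunit protein, was at 186, 222 and 272 TPM in the Control libraries, 185 in A2ko and 193 in A8ko, and 406 and 409.5 in C9ko. The C9ko values lie above all others, while A2ko lies just under the lowest Control and A8ko within the Control range. RPL32 rose 1.82-fold (log2 difference 0.86, SE 0.15, limma adjusted p 0.00567), and the call was lost when genes with low values were kept in the test (limma adjusted p 0.0849).

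RPSA (ENSG00000168028, chromosome 3, 39406689 to 39412542), a small-subunit protein also described at the cell surface as a laminin receptor, was at 1371, 1294 and 1292 TPM in the Control libraries, 1160.2 in A2ko and 1531 in A8ko, and 2203 and 2307 in C9ko. C9ko stands clear of the rest, with A8ko a little above and A2ko a little below Control. RPSA rose 1.71-fold (log2 difference 0.77, SE 0.073, limma adjusted p 0.00047).

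RPL29 (ENSG00000162244, chromosome 3, 51993522 to 51995942), a large-subunit protein also known as a heparin-binding protein, was at 593, 586 and 624 TPM in the Control libraries, 666 in A2ko and 579 in A8ko, and 939 and 957 in C9ko. RPL14 (ENSG00000188846, chromosome 3, 40457292 to 40468587), another large-subunit protein, was at 445, 416 and 443 TPM in the Control libraries, 402 in A2ko and 403 in A8ko, and 702 and 629 in C9ko. In both genes the C9ko libraries were above every other library and A8ko lay just below Control. RPL29 rose 1.58-fold (log2 difference 0.66, SE 0.065, limma adjusted p 0.000568). RPL14 rose 1.53-fold (log2 difference 0.61, SE 0.076, limma adjusted p 0.0014). RPL14, RPL15, RPL29 and RPSA kept their calls under all 14 alternative settings of the C9ko test.

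The sixth higher gene was RPS6 on chromosome 9 (ENSG00000137154, chromosome 9, 19375715 to 19380254), the small-subunit protein phosphorylated by S6 kinase downstream of mTOR. It was at 1869, 1686 and 1813 TPM in the Control libraries, 1951 in A2ko and 1825 in A8ko, and 2193 and 2369 in C9ko. The C9ko values lie above all others, with A2ko between them and Control. RPS6 rose 1.27-fold (log2 difference 0.35, SE 0.084, limma adjusted p 0.0213), but the call was lost under 7 of the 14 alternatives. It was lost without Control 2 (limma adjusted p 0.0539), Control 3 (0.0590), C9ko 1 (0.0552) or C9ko 2 (0.132), and with median-of-ratios scaling (0.0509).

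**Figure D4:**
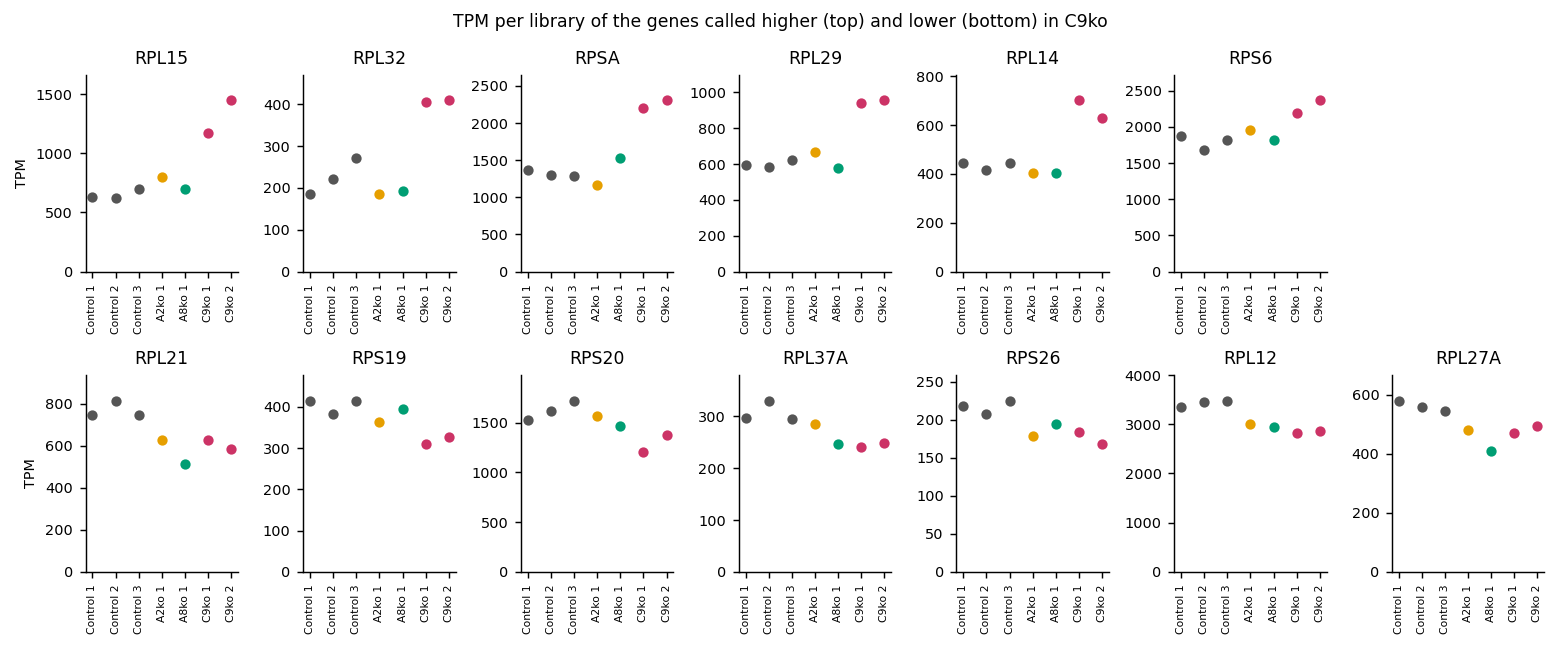
TPM in each of the 7 libraries for the 6 genes called higher in C9ko (top row) and the 7 called lower (bottom row), with axes from 0 and colours by group. Points of C9ko lie above all others in the top row, and in the bottom row both C9ko points lie below every Control point.

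The genes around these members were higher as well. An earlier look at these data had already found such stretches on the chromosomes of these members, so the values that follow are a description. For each member, the 20 nearest tested genes that are not ribosomal protein genes were taken, and their median log2 difference in C9ko was 0.82 around RPL32, 0.76 around RPL15, 0.81 around RPSA, 0.72 around RPL14, 0.89 around RPL29 and 0.51 around RPS6. Of those 20 genes, 17, 17, 14, 15, 17 and 11 were called higher, in that order. The members themselves differed from these medians by at most 0.25 log2 units. RPL15 and RPL32 lay above their neighbours' median, and RPSA, RPL14, RPL29 and RPS6 lay below it. Near the other 76 tested members the medians were at most 0.37.

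The other 4 members of chromosome 3 lie on its long arm, from 101681091 on, and none was called. RPL24 was at 1132, 1103 and 1295 TPM in the Control libraries, 1102 in A2ko and 947 in A8ko, and 1035 and 909 in C9ko, with all 4 knockout values below Control, A2ko barely so (limma adjusted p 0.0826). RPL35A, a gene mutated in Diamond-Blackfan anaemia, was at 864, 903 and 857 TPM in the Control libraries, 800.3 in A2ko and 772 in A8ko, and 778 and 817 in C9ko (limma adjusted p 0.184), with every knockout library below Control. Their neighbours' medians in C9ko were -0.03 and 0.07, and those of RPL22L1 and RPL39L were 0.11 and 0.09. RPL7A, on chromosome 9, was at 2888, 2447 and 2716 TPM in the Control libraries, 2754 in A2ko and 2692 in A8ko, and 2304 and 2608 in C9ko (limma adjusted p 0.397). RPL7A, RPL12 and RPL35 lie far from RPS6 on that chromosome, with neighbour medians of 0.05, 0.02 and 0.12. RPS21, the one member on chromosome 20, was at 1006, 1085 and 1374 TPM in the Control libraries, 928 in A2ko and 932 in A8ko, and 929.5 and 896 in C9ko, with its neighbours at 0.12. Every knockout library of RPS21 lies below Control, and the C9ko difference of -0.33 was not called (limma adjusted p 0.112).

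Across the 82 members, the difference in C9ko and the median of the neighbours had a Pearson's r of 0.82 and a Spearman's rho of 0.38, given as a description since members close together share neighbours and all share libraries. In A8ko r was 0.22 (rho 0.07) and in A2ko 0.15 (rho 0.11). In each knockout most members lay below their neighbours: 70 of 82 in A2ko, 70 in A8ko and 76 in C9ko, with median gaps of -0.16, -0.18 and -0.21. The neighbours' values had medians of 0.15, 0.10 and 0.10, near the 0.12, 0.09 and 0.11 over all tested genes. These counts therefore largely restate that members lay below the median tested gene. The same count for other tested genes beside their own neighbours is not given.

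**Figure D5:**
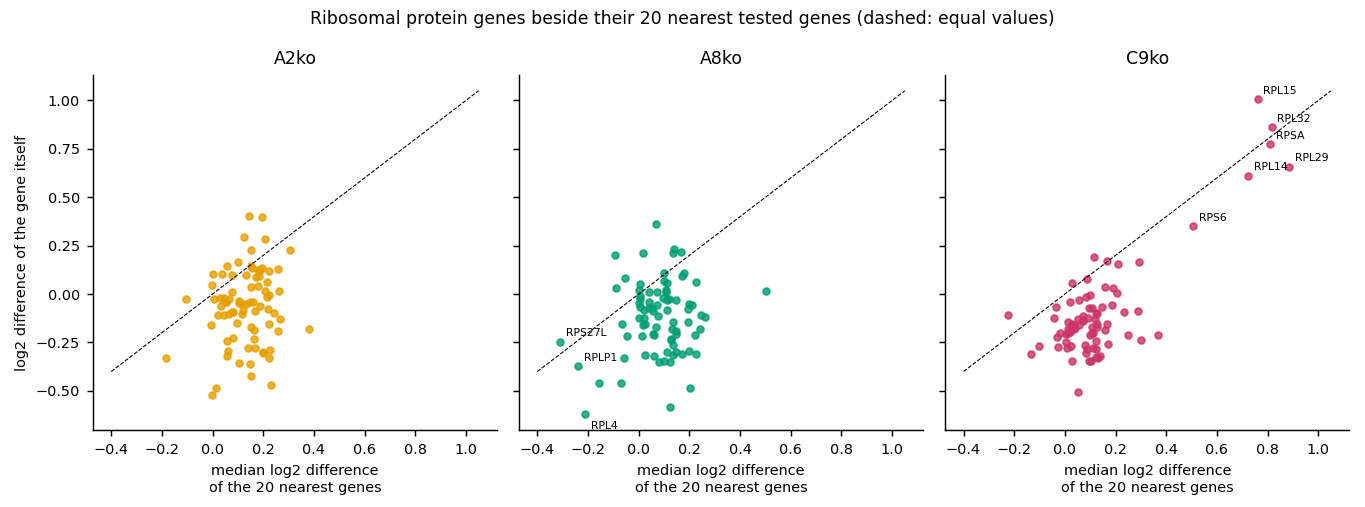
Log2 difference of 81 of the 82 members (vertical) against the median log2 difference of its 20 nearest tested genes (horizontal), with a dashed line of equal values. In C9ko 6 named members stand apart near the line at 0.51 or more on the horizontal axis, in A8ko RPL4, RPLP1 and RPS27L of chromosome 15 lie at -0.21 or less, and most other points lie under the line.

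The 7 members called lower in C9ko lie on 7 chromosomes and had differences from -0.35 to -0.22 log2 units. RPS19 (ENSG00000105372, chromosome 19, 41859918 to 41872926), the gene most often mutated in Diamond-Blackfan anaemia, was at 414, 382 and 415 TPM in the Control libraries, 363 in A2ko and 394 in A8ko, and 309 and 326 in C9ko. RPL21 (ENSG00000122026, chromosome 13, 27251309 to 27256691), a large-subunit protein, was at 748, 815 and 748 TPM in the Control libraries, 625 in A2ko and 514 in A8ko, and 626 and 585 in C9ko. In RPS19 the A8ko value lies within Control, whereas in RPL21 every knockout library lies below Control and A8ko is the lowest. The fall of RPS19 had a log2 difference of -0.35 (SE 0.069, adjusted p of limma 0.0106), and that of RPL21 -0.35 (SE 0.074, adjusted p of limma 0.0136).

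RPS26 (ENSG00000197728, chromosome 12, 56041351 to 56044697), which lies at the exit of the messenger RNA channel, was at 218, 207 and 225 TPM in the Control libraries, 179 in A2ko and 194 in A8ko, and 184 and 168 in C9ko. RPL37A (ENSG00000197756, chromosome 2, 216498189 to 216579180) was at 298, 331 and 294 TPM in the Control libraries, 285 in A2ko and 247 in A8ko, and 241 and 249.6 in C9ko. RPL27A (ENSG00000166441, chromosome 11, 8682411 to 8714759) was at 581, 560.0 and 546 TPM in the Control libraries, 481 in A2ko and 409 in A8ko, and 470.4 and 495 in C9ko. In all 3 genes every knockout library lies below every Control library. RPS26 fell (log2 difference -0.30, SE 0.070, limma adjusted p 0.019), as did RPL37A (log2 difference -0.32, SE 0.073, limma adjusted p 0.0176) and RPL27A (log2 difference -0.22, SE 0.065, limma adjusted p 0.0446).

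RPL12 (ENSG00000197958, chromosome 9, 127447674 to 127451405), at the base of the P stalk, was at 3353, 3450.4 and 3482 TPM in the Control libraries, 3000.2 in A2ko and 2947 in A8ko, and 2821 and 2867 in C9ko. RPL12 fell in C9ko (log2 difference -0.27, SE 0.077, limma adjusted p 0.0399), with all 4 knockout libraries below Control. RPS20 (ENSG00000008988, chromosome 8, 56067295 to 56074581), a small-subunit protein, was at 1526, 1619 and 1722 TPM in the Control libraries, 1566 in A2ko and 1468 in A8ko, and 1206 and 1373 in C9ko. RPS20 fell in C9ko (log2 difference -0.33, SE 0.092, limma adjusted p 0.0362). RPS20 is the one of the 7 whose A2ko value lies within Control and whose A8ko value lies below it. Most of these calls did not outlast the loss of 1 library. Without C9ko 1 only RPL21 and RPS26 of the 7 kept theirs, and without C9ko 2 only RPS19 and RPS20. Without Control 1 it was RPL21, RPL37A, RPS19 and RPS20, without Control 2 RPL21, RPL37A, RPS19 and RPS26, and without Control 3 RPL21, RPL37A and RPS19. RPL12, RPL27A and RPS19 overlap a small RNA gene on the same strand (SNORA65, SNORA3B and MIR6797). RPL27A also overlaps TRIM66 and DENND2B, and RPL37A overlaps RPL37A-DT, on the other strand.

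Grouped by place in the ribosome, the P stalk, 5S, exit tunnel and decoding-side lists had 0 members called higher in C9ko. Over all tested genes 22% were called higher and 7.42% lower. Each list holds only 2 to 4 genes, so these counts say little. Of the 4 P stalk proteins, which draw the translation factors to the ribosome, RPL12 was the one called. RPLP0 was at 3550.4, 3236 and 3510.1 TPM in the Control libraries, 3067 in A2ko and 3265 in A8ko, and 2832 and 2911 in C9ko, RPLP1 at 1075, 1126 and 1034 TPM in the Control libraries, 839 in A2ko and 832 in A8ko, and 1045 and 1007 in C9ko, and RPLP2 at 1566, 1577 and 1823 TPM in the Control libraries, 1552 in A2ko and 1202 in A8ko, and 1405 and 1397 in C9ko. RPLP0 and RPLP2 lie below Control in both C9ko libraries, whereas RPLP1 lies below it in A2ko and A8ko and partly within it in C9ko. Their C9ko differences were -0.26, -0.07 and -0.24 (limma adjusted p 0.0623, 0.487 and 0.0948). With median-of-ratios scaling 3 of the 4 were called lower, where 2187 of the 17100 tested genes were.

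RPL5 and RPL11 bind the 5S ribosomal RNA and, when assembly fails, the p53 regulator MDM2. RPL5 was at 1244, 1214 and 1430.0 TPM in the Control libraries, 1306 in A2ko and 1496 in A8ko, and 1165 and 1209 in C9ko. RPL11 was at 1036, 1206 and 1068 TPM in the Control libraries, 992 in A2ko and 988 in A8ko, and 977 and 935 in C9ko. RPL5 was above Control in A8ko and below it in C9ko, and RPL11 was below Control in every knockout library. In C9ko 0 of the 2 were called (limma adjusted p 0.354 and 0.126), beside 22% of all tested genes called higher and 7.42% lower.

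Among the 4 proteins that line the exit tunnel of the growing peptide, 0 were called in C9ko. Over all tested genes 22% were called higher and 7.42% lower. With median-of-ratios scaling 2 of these 4 were called lower, where 2187 of the 17100 tested genes were. RPL4 is given with chromosome 15 below. RPL17 was at 1107, 1124 and 1181 TPM in the Control libraries, 1185 in A2ko and 1189 in A8ko, and 1032 and 1011 in C9ko. RPL23A was at 833, 806 and 806 TPM in the Control libraries, 869 in A2ko and 797 in A8ko, and 787 and 719.6 in C9ko. RPL39 was at 1739, 1592 and 1638 TPM in the Control libraries, 1601 in A2ko and 1563 in A8ko, and 1333 and 1547 in C9ko. In C9ko all 3 lie below Control, with log2 differences of -0.15, -0.11 and -0.20 (limma adjusted p 0.14, 0.265 and 0.141), while RPL17 and RPL23A lie above Control in A2ko.

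At the entry and decoding side of the small subunit, 0 of 4 genes were called, with a median of -0.29 in C9ko. Over all tested genes 22% were called higher and 7.42% lower. With median-of-ratios scaling 2 of these 4 were called lower, where 2187 of the 17100 tested genes were. RPS2 was at 6380.2, 5509.9 and 5567 TPM in the Control libraries, 4901 in A2ko and 5583 in A8ko, and 4975 and 4679 in C9ko, with C9ko and A2ko below Control and A8ko within it (limma adjusted p 0.101 for C9ko). RPS23, which reaches into the decoding centre, had the most negative difference of the 82 members in C9ko, -0.51, without a call (SE 0.20, limma adjusted p 0.101). It was at 351, 534 and 358 TPM in the Control libraries, 399.5 in A2ko and 338 in A8ko, and 322 and 254 in C9ko, and Control 2 stands far above the other Control libraries.

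Of 18 members known to be mutated in Diamond-Blackfan anaemia, an inherited failure of red cell production, 1 was called higher in C9ko (RPL15) and 2 lower (RPS19 and RPS26), with a median of -0.15, beside 22% and 7.42% of all tested genes. With median-of-ratios scaling 1 was called higher and 9 lower, where 5 and 36 of the 82 members and 2626 and 2187 of the 17100 tested genes were.

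Several paralogs of ribosomal proteins, copies that can replace their parent in some tissues, were expressed at low levels. RPL22L1, the paralog of RPL22, was at 61.7, 49.9 and 59.9 TPM in the Control libraries, 40.8 in A2ko and 73.4 in A8ko, and 67.0 and 63.0 in C9ko. RPL22 was at 270.2, 279 and 285 TPM in the Control libraries, 269.5 in A2ko and 247 in A8ko, and 252 and 233 in C9ko. RPL22L1 was lowest in A2ko and highest in A8ko, while RPL22 lay below Control in all 4 knockout libraries. Neither was called in C9ko (limma adjusted p 0.204 and 0.063).

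RPL26L1 was at 62.5 ± 4.43 TPM (SD, n = 3) in Control against 1073 ± 47.4 TPM (SD, n = 3) for RPL26, and at 64.5 and 63.7 TPM in C9ko. RPL39L was at 51.1 ± 4.18 TPM (SD, n = 3) against 1656 ± 75.2 TPM (SD, n = 3) for RPL39, and at 49.9 and 58.4 TPM in C9ko. RPL7L1, which acts in the making of the large subunit, was at 88.0 ± 5.32 TPM (SD, n = 3) against 1222 ± 82.5 TPM (SD, n = 3) for RPL7, and at 88.8 and 94.5 TPM in C9ko. None of these 3 paralogs was called, with differences of 0.04, 0.08 and 0.06 that turn negative with median-of-ratios scaling. Their parents RPL26, RPL39 and RPL7 differed by -0.13, -0.20 and -0.19, also without a call.

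RPS27L, a p53 target, was at 8.95, 10.8 and 9.003 TPM in the Control libraries, 11.9 in A2ko and 7.89 in A8ko, and 8.47 and 8.25 in C9ko. RPS27 was at 2069, 2008 and 2018 TPM in the Control libraries, 1975 in A2ko and 1592 in A8ko, and 1857 and 1512 in C9ko. RPS27L lies above Control in A2ko and below it in A8ko and C9ko, and RPS27 lies below Control in all 4 knockout libraries, most in C9ko 2 and A8ko. Neither was called (limma adjusted p 0.241 and 0.0835). RPL3L, known from striated muscle, was at 0.127, 0.299 and 0.305 TPM in Control and at most 0.300 TPM in the knockouts, against 1557 ± 156 TPM (SD, n = 3) for RPL3. RPL10L, known from testis, was at 0.0922, 0.0792 and 0.0648 TPM in Control and at most 0.221 TPM in the knockouts, against 2105 ± 535 TPM (SD, n = 3) for RPL10. Ribosomal protein genes have many processed pseudogenes, and how reads were divided among copies is not given in the sources used here. The 1601 listed pseudogenes summed to 2468 to 2846 TPM per library, with 382 to 429 of them above 0.

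A8ko, with 1 distinct library and so no test, was described by the genes outside the Control range that also differed from the Control mean by at least 0.5 log2 units. Of the 82 members 0 were above (background 10.4% of tested genes) and 3 were below (background 8.47%). RPL4 (ENSG00000174444, chromosome 15, 66498015 to 66524532) was at 1094, 1039 and 1394 TPM in the Control libraries, 1174 in A2ko and 758 in A8ko, and 994 and 1060.3 in C9ko. The values of RPL21, also below, are given above. For both RPL4 and RPL21, A8ko is the lowest of the 7 libraries, with differences of -0.62 and -0.58.

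RPL4 lies on chromosome 15, as do RPLP1 and RPS27L. These genes were below the Control range in A8ko, RPLP1 with a difference of -0.37 from the Control mean and RPS27L with -0.25. The medians of their 20 nearest genes in A8ko were -0.21 (RPL4), -0.24 (RPLP1) and -0.31 (RPS27L), and that of the 507 other tested genes of the chromosome was -0.27. In A2ko and C9ko the median of those 507 genes was 0.14 and 0.07. RPL30 was at 1019, 962 and 1039 TPM in the Control libraries, 821 in A2ko and 719 in A8ko, and 1124 and 897 in C9ko. RPL30 (-0.49) and RPL27A (-0.46) on other chromosomes were the next lowest members outside the Control range. The largest positive differences outside it were those of RPL22L1 (0.36), RPS16 (0.23), RPSA (0.22) and RPL7L1 (0.21). RPS16 was at 1595, 1456 and 1494 TPM in the Control libraries, 1662 in A2ko and 1779 in A8ko, and 1472 and 1361 in C9ko, with A8ko the highest library.

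A2ko, also with 1 distinct library, had 0 members above by the same measure (background 16.6%) and 1 below (background 6.26%). That gene was RPL10 (ENSG00000147403, chromosome X, 154389955 to 154409168), which completes the large subunit late in its assembly, at 1524, 2214 and 2578 TPM in the Control libraries, 1431 in A2ko and 1614 in A8ko, and 2012 and 1417 in C9ko. Its A2ko value of 1431 TPM is close to Control 1 and to C9ko 2. The count below or above was 3 without Control 1 and 0 without Control 3, and the matching shares of all tested genes are not given. The next lowest outside the range were RPL37 (-0.49), RPL22L1 (-0.47) and RPL35 (-0.42). RPL37 was at 198, 215 and 207 TPM in the Control libraries, 147 in A2ko and 162 in A8ko, and 224 and 169 in C9ko, and RPL35 at 2016, 1726 and 1723 TPM in the Control libraries, 1353 in A2ko and 1476 in A8ko, and 1578 and 1647 in C9ko. In RPL37 the A2ko library is the lowest and a C9ko library the highest, and in RPL35 all 4 knockout libraries lie below Control.

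The largest positive differences in A2ko were those of RPL9 (0.40), RPL28 (0.40), RPL15 (0.29) and RPS27L (0.29). RPL9 was at 2620.5, 2313 and 2497 TPM in the Control libraries, 3269 in A2ko and 2623 in A8ko, and 2237 and 2246 in C9ko. RPL28 was at 285, 331 and 328 TPM in the Control libraries, 415 in A2ko and 302 in A8ko, and 298 and 305 in C9ko. In both genes A2ko is the highest of the 7 libraries. RPL9 in C9ko lies below Control, and RPL28 in C9ko lies within it.

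All knockouts together were compared with Control with each knockout group as 1 value. Of the 82 members, 0 were called by limma, where 1.03% of all tested genes were, and 5 members had an unadjusted p under 0.05, as did 2740 of the 17100 tested genes. The member with the smallest p was RPL21, with a difference of -0.41 (limma adjusted p 0.162). Below all Control libraries in each of the 4 knockout libraries lay 14 members, and above them 1, RPL15, against 788 and 2911 of the 17100 tested genes.

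Other genes of ribosome production and translation are given by list. Counts on the deposited scale are to be read against the 22% of all tested genes called higher in C9ko and the 7.42% called lower. The C9ko median over all tested genes was 0.11. With median-of-ratios scaling 2626 of the 17100 tested genes were called higher and 2187 lower, with a median of -0.005. Of 42 ribosome biogenesis factors, 12 were called higher in C9ko and 0 lower, with medians of -0.23 in A2ko, 0.24 in A8ko and 0.19 in C9ko. The share called higher is near that of all tested genes, and the C9ko median was 0.06 with median-of-ratios scaling. The largest were RRP9, a protein of the U3 particle that processes ribosomal RNA, and GNL3, a nucleolar GTPase. RRP9 was at 32.4, 24.7 and 30.2 TPM in the Control libraries, 25.03 in A2ko and 38.9 in A8ko, and 62.5 and 65.6 in C9ko (log2 difference 1.12, SE 0.12, limma adjusted p 0.000645). GNL3 was at 60.6, 50.3 and 56.0 TPM in the Control libraries, 46.3 in A2ko and 72.3 in A8ko, and 105 and 122 in C9ko (log2 difference 1.02, SE 0.10, limma adjusted p 0.000611). Both lie on chromosome 3 close to RPL29, RRP9 at 51933430 to 51941941, and the 20 nearest genes had medians of 0.89 and 0.87. The other 10 lie on other chromosomes. With median-of-ratios scaling 8 of the 42 were called higher and 1 lower. Without Control 3 it was 8 higher, where 2946 of the 17100 tested genes were. Fewer were also called higher when either C9ko library was left out, as was so over all tested genes.

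Of 14 genes of the RNA polymerase I machinery, which transcribes ribosomal RNA, 5 were called higher in C9ko and 0 lower. Their C9ko median was 0.21. Over all tested genes 22% were called higher and 7.42% lower. With median-of-ratios scaling 4 of the 14 were called higher and 1 lower. Fewer were also called higher when either C9ko library was left out, as was so over all tested genes. POLR1E was at 28.1, 24.97 and 31.1 TPM in the Control libraries, 26.1 in A2ko and 39.9 in A8ko, and 43.4 and 46.8 in C9ko (log2 difference 0.67, SE 0.10, limma adjusted p 0.00316), and TAF1A, a subunit of the promoter factor SL1, was at 7.703, 9.22 and 7.82 TPM in the Control libraries, 7.84 in A2ko and 11.6 in A8ko, and 11.9 and 13.2 in C9ko (log2 difference 0.56, SE 0.10, limma adjusted p 0.00761). In both genes the C9ko libraries are the highest and A8ko follows. Of 16 translation factors and other genes with known TOP messenger RNAs, 0 were called higher and 1 lower, beside 22% and 7.42% of all tested genes, with medians of 0.17 in A2ko, 0.09 in A8ko and -0.10 in C9ko, of which the A8ko median turned to -0.01 with median-of-ratios scaling. The 1 called was EIF4B, which helps the helicase of translation initiation, at 331, 378 and 401 TPM in the Control libraries, 439 in A2ko and 363 in A8ko, and 261 and 312 in C9ko (log2 difference -0.37, SE 0.11, limma adjusted p 0.0467). The call was lost without C9ko 1 (limma adjusted p 0.220), Control 2 (0.115) or Control 3 (0.125).

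Of 15 genes of the TOR pathway and the LARP family, 3 were called higher and 1 lower in C9ko, near the shares of 22% and 7.42% over all tested genes. RICTOR, a subunit of mTOR complex 2, was at 10.8, 9.43 and 9.54 TPM in the Control libraries, 10.9 in A2ko and 12.6 in A8ko, and 14.9 and 14.1 in C9ko (log2 difference 0.51, SE 0.086, limma adjusted p 0.00528), and LARP4, a poly(A)-binding cofactor, at 34.8, 35.6 and 37.2 TPM in the Control libraries, 37.4 in A2ko and 41.3 in A8ko, and 43.8 and 46.7 in C9ko (log2 difference 0.32, SE 0.066, limma adjusted p 0.0115). EIF4EBP1, the mTOR target that holds back translation initiation, was at 76.6, 67.3 and 77.6 TPM in the Control libraries, 45.9 in A2ko and 68.7 in A8ko, and 52.9 and 53.2 in C9ko (log2 difference -0.47, SE 0.079, limma adjusted p 0.00538). EIF4EBP1 is lower than Control in A2ko and C9ko and within the Control range in A8ko. LARP1, the third higher gene, had a difference of 0.19 (limma adjusted p 0.0471), was named after its value was seen, and lost the call when any 1 of the 5 libraries was left out and with median-of-ratios scaling (0.465). LARP4 lost its call without C9ko 2 (limma adjusted p 0.0765).

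Of 78 mitochondrial ribosomal protein genes, 9 were called higher and 1 lower in C9ko, both under the shares of 22% and 7.42% over all tested genes, with medians of -0.16 in A2ko, 0.10 in A8ko and 0.07 in C9ko, of which the A8ko and C9ko medians turned to 0.00 and -0.06 with median-of-ratios scaling. On that scale 4 were called higher and 10 lower, where 2626 and 2187 of the 17100 tested genes were. MRPL33 was at 51.9, 46.6 and 53.9 TPM in the Control libraries, 63.2 in A2ko and 87.3 in A8ko, and 96.0 and 89.0 in C9ko (log2 difference 0.85, SE 0.081, limma adjusted p 0.000477), and MRPS25 at 36.6, 45.3 and 33.0 TPM in the Control libraries, 41.9 in A2ko and 55.5 in A8ko, and 50.0 and 87.2 in C9ko (log2 difference 0.78, SE 0.23, limma adjusted p 0.0454). The 1 lower gene was MRPS5 at 44.8, 46.6 and 48.1 TPM in the Control libraries, 37.0 in A2ko and 48.1 in A8ko, and 39.1 and 39.3 in C9ko (log2 difference -0.24, SE 0.062, limma adjusted p 0.0292). MRPS25 lies on chromosome 3, where its 20 nearest genes had a median of 0.94. Its C9ko libraries lie far apart, and the call was lost without C9ko 2 (limma adjusted p 0.167) and without any of the Control libraries (0.0546 to 0.126). MRPS5 lost its call without C9ko 1 (limma adjusted p 0.112), C9ko 2 (0.109), Control 2 (0.0687) or Control 3 (0.0854). The count called higher was 4 without Control 3 and 5 without Control 2, where 2946 and 2796 of the 17100 tested genes were.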

How the data were processed

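RNA was measured in 9 samples of CAL27 cells in 4 groups, named in the sample titles. The deposited values are TPM per Ensembl gene, computed by the authors. Per the labels' protocols, polyA RNA was used with dUTP libraries. The build was hg38, per the submitters' processing notes, and the aligner, counting tool and use of strand are not given in the sources used here. TPM keeps no depth, so no counting interval is given, and the number of libraries limits the precision.

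Files were compared, and identical pairs were counted once, which left 7 distinct libraries. Both identical files of a pair carry the header of the second library. Gene symbols were looked up by Ensembl identifier (61463 of 78894 matched), positions from GENCODE 29 (57342 matched, 84 of the 84 members), and start sequences from RefSeq. Genes at 1 TPM or more in at least 2 libraries were analysed as log2(TPM + 1), so differences of low genes are understated. limma 3.58.1 (R 4.3.3, lmFit and eBayes with trend) fitted all 4 groups, with Benjamini-Hochberg adjustment over 17100 genes and calls at 0.05. The fit was tested on simulated data. A2ko and A8ko, with 1 distinct library each, have no p-values. There a member was counted when it lay outside the Control range and at least 0.5 log2 units from the Control mean. For all knockouts, 3 group means were fitted against 3 Control libraries.

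The set of genes, its symbol rule and the lists were chosen with earlier results of these data known, although the rule uses symbols only. Members were named when they were among the 5 highest or lowest in Control, the 8 largest called differences in each direction in C9ko, the 4 largest in each direction in A2ko or A8ko outside the Control range, paralogs with their parents, P stalk, 5S and exit tunnel proteins, or on chromosomes 3, 9, 15 or 20. These chromosomes were chosen because an earlier look at these data had found stretches of neighbouring genes on them that moved together. Of other lists, the 2 largest called differences in each direction were named. Alternatives were another pseudocount (0.1), filters, scalings, handling of identical files, a replicate block, and leaving out each library. Same-numbered Control and C9ko libraries did not deviate together (r of -0.05 and -0.01), so numbers were not used to pair samples. Protein sequences were not analysed here, and the values of 1 member and 1 alternative set of members are not reported here.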

Additional observations from a re-analysis of the deposited data

Results flagged for a closer look

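In 3 members, knockouts lay outside the Control range on opposite sides, each at least 0.2 log2 units from the Control mean. The share of all tested genes that met this rule is not given. Of the 17100 tested genes, 8621 were above the Control range by any amount and 4500 below it in A2ko. In A8ko these counts were 8024 and 4512, and in C9ko 7020 and 2807. No test of the gap between knockouts was made, so these differences were not tested. All 3 knockouts share the same Control libraries.

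RPL32 was below the Control range in A2ko (-0.28) and above it in C9ko (0.86), a gap of 1.14 log2 units. Its level was 185 TPM in A2ko and 406 and 409.5 TPM in C9ko, against 186, 222 and 272 TPM in Control.

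RPL22L1 was below the Control range in A2ko (-0.47) and above it in A8ko (0.36), a gap of 0.833 log2 units. Its level was 40.8 TPM in A2ko and 73.4 TPM in A8ko, against 61.7, 49.9 and 59.9 TPM in Control.

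RPS27L was above the Control range in A2ko (0.29) and below it in A8ko (-0.25), a gap of 0.532 log2 units. Its level was 11.9 TPM in A2ko and 7.89 TPM in A8ko, against 8.95, 10.8 and 9.003 TPM in Control. The 20 nearest genes of RPS27L had a median of -0.31 in A8ko.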

How the results depend on the processing

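The count of members called lower in C9ko, 7, was 1 without a filter on low values, 36 with median-of-ratios scaling, 31 without mitochondrially encoded genes and 30 with all 9 files as separate libraries, and 2 to 7 when 1 library was left out. Over all tested genes, 2187 of 17100 were called lower with median-of-ratios scaling and 1878 of 17063 without mitochondrially encoded genes. With all 9 files as separate libraries it was 2226 of 17100. Without a filter on low values it was 892 of 42643, and 819 to 1037 of 17100 when 1 library was left out. The count of members called higher, 6, was 4 to 7 over all alternatives. With the replicate number as a block (replicate block), 5 members were called higher and 0 lower, where 2420 and 828 of the 17100 tested genes were. For all knockouts, the count of 0 was 1 with all 9 files, 1 without A2ko and 10 (3 higher and 7 lower) with the knockout average taken within the fit of all groups. Of the 17100 tested genes, 961 were called higher and 312 lower with all 9 files, and 1382 and 611 without A2ko. With the average within the fit it was 3343 and 1018, so the members' share of calls is under the background there. Over all tested genes, the C9ko split of 3770 higher and 1268 lower ran from 2269 to 5940 higher and from 818 to 2226 lower, and that of all knockouts, 87 and 89, from 0 to 3343 and from 5 to 1018.

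With median-of-ratios scaling the member medians were -0.18 in A2ko, -0.22 in A8ko and -0.29 in C9ko. The C9ko median was -0.26 without mitochondrially encoded genes, and the A2ko median was -0.16 relative to the nearest genes. With median-of-ratios scaling, members outside the Control range and at least 0.5 from the Control mean numbered 4 in A2ko and 6 in A8ko. Without mitochondrially encoded genes they numbered 6 in A8ko. When 1 library was left out they numbered 0 to 3 in A2ko and 2 to 5 in A8ko. The matching shares of all tested genes are not given for these settings, so these counts cannot be set against a background. Without mitochondrially encoded genes the mean shares were 13.0% in Control, 12.7% in A2ko, 11.4% in A8ko and 11.1% in C9ko. The cause of these shifts was not tested.

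Of the named members, 5 that had no call in C9ko changed sign. RPL26L1 was at -0.0922 with median-of-ratios scaling, -0.0608 without mitochondrially encoded genes and -0.0211 to 0.0690 when 1 library was left out. RPL39L was at -0.0501, -0.0186 and -0.0310 to 0.191 in the same order. RPL7L1 was at -0.0729 and -0.0413 under those scalings. RPL30 was at 0.0202 with the replicate block and -0.166 to 0.160 when 1 library was left out, and RPL37 at -0.290 to 0.116. TPM holds no depth, so what depth limits cannot be given.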
